A study of Mus musculus with 15 samples.

Results

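Gene expression was compared between E0771 cells carrying a protease-dead form of Malt1 (Malt1_PD) and E0771 cells carrying the wild-type form (Malt1_WT). E0771 is a mouse mammary carcinoma cell line. The comparison used 6 of the 15 libraries in the series, 3 for each form, and covered every gene row of the count table. The members were found by label: the columns named Malt1_C461A were taken as the 3 samples labelled Malt1_PD, the only construct without columns of its own name, and were set against the 3 columns named Malt1_WT. The labels do not spell out PD. C461A names the replacement of a cysteine by alanine, and the substitution itself cannot be read from gene counts. The question was what differs between cells when the wild-type protein is exchanged for a form named for loss of its protease.

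MALT1 is a paracaspase. In lymphocytes and other cells a CARD protein and BCL10 form filaments onto which MALT1 is recruited. There it acts as a scaffold that passes the signal through TRAF6 to the IkB kinases and NF-kB, and as a cysteine protease that cuts a small set of proteins. The cut proteins include brakes on inflammatory signalling (A20, CYLD, RelB) and proteins that destroy or silence inflammatory mRNAs (Regnase-1, Roquin-1 and Roquin-2).

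Both groups were the same cell line without T cells in the culture, per the series title, and differed in the construct. The other groups of the series carried an empty vector (labelled Vector control), Malt1_V87R or Malt1_L88D. Vector values stand beside part of the results below. The other 2 constructs entered mainly through the shared fit, in the filter on low counts, the scaling and the estimate of the spread between libraries. The labels give no promoter for the constructs, and do not say whether the endogenous gene was intact, whether cells were pools or clones, or whether replicates were separate cultures. The p-values therefore rest on the spread within groups of libraries, which may be technical only.

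Total counts were 15471746, 17598416 and 15712063 in the Malt1_WT libraries and 19371109, 17061605 and 19055109 in the Malt1_PD libraries. Levels are given as CPM, counts per 1e6 counts of the library after scaling by TMM factors. Where values are joined by "against", Malt1_WT stands first and Malt1_PD second, each in the order of replicates 1 to 3, and fold changes on the log2 scale are of Malt1_PD over Malt1_WT with their SE. In these 6 libraries 3 counts correspond to between 0.159 and 0.196 CPM, and lower levels are not told apart from 0. Such limits cover counting error only. Malt1_PD replicate 2 stood apart from the others of its group: a chi-square statistic per gene was 8.83 and 6.12 against its replicates 1 and 3, where the other pairs within the 2 groups gave 2.34 to 3.65. No pair agreed within sampling noise.

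The protein-coding gene Malt1 (ENSMUSG00000032688.9), on the plus strand of GRCm38 chromosome 18 from 65430938 to 65479067, was at 26.4, 30.2 and 27.8 CPM in the 3 vector libraries, 208, 193 and 206 CPM in Malt1_WT and 260.0, 247 and 243 CPM in Malt1_PD. Both construct groups were far above the vector, and every Malt1_PD library was above every Malt1_WT library. The log2 fold change of Malt1_PD over Malt1_WT was 0.31 ± 0.042 (SE), a 1.24-fold higher level (edgeR adjusted p = 2.6e-06). The amount of construct mRNA and the form of the protein therefore changed together and cannot be told apart in this comparison. A count by gene does not separate construct from endogenous transcripts.

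Among markers of the labelled tissue, the luminal keratin gene Krt8 was at 94.0, 86.3 and 88.8 CPM in Malt1_WT and 118, 113 and 116 CPM in Malt1_PD, and Epcam at 5.68, 6.45 and 5.91 against 5.36, 5.10 and 6.53 CPM. Krt5 was 0 in all 9 libraries of the 3 groups, Krt14, Krt18, Krt19 and Cdh1 were each at 0.48 CPM or less in the 6 libraries compared, and the mesenchymal gene Vim was at 2449 against 2905 CPM on average. Krt8 and Epcam were thus detected in both groups, Epcam at a low level, while Krt5, Krt14, Krt18, Krt19 and Cdh1 were at or near 0. Of 7 tested markers of this list, Krt8 was higher and Erbb3 lower in Malt1_PD, or 28.6% called against 23.3% of all genes tested.

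Markers of other cell types were checked as whole lists. The 23 macrophage and dendritic cell markers summed to 93.5 to 94.2 CPM in Malt1_WT, 96.5 to 104 CPM in Malt1_PD and 57.3 to 59.5 CPM with the vector. Of 13 tested, 4 were higher (Lyz2, Apoe, Csf1r, C1qb) and 3 lower (Cd74, Cd68, H2-Aa), or 53.85% called against 23.3% of all genes. The leukocyte genes Ptprc, Itgam and Aif1 were at 0.29 CPM or less in all 6 libraries. Lyz2, the macrophage lysozyme, was at 4.63, 6.91 and 2.38 CPM in Malt1_WT and 15.7, 14.4 and 13.0 CPM in Malt1_PD, and Apoe at 5.42, 5.07 and 5.72 against 11.5, 10.7 and 12.4 CPM. The groups did not overlap for either gene, as in 33.7% of all genes, and both were among the 12 largest rises. In Malt1_L88D cells Lyz2 was at 13.8 ± 7.35 CPM and Apoe at 11.4 ± 4.13 CPM (mean and SD). In Malt1_V87R cells they were at 5.01 ± 1.55 and 6.39 ± 1.38 CPM. The Malt1_PD levels were thus not particular to that construct. C1qb, at 0.0653, 0.0576 and 0 against 0.690, 0.237 and 0.696 CPM, rests on few counts. Without Malt1_WT replicates 1 or 3 or Malt1_PD replicates 1 or 3, or by DESeq2, 2 of the list were higher. Leaving out any 1 of these 4 libraries ended the calls of Lyz2, Csf1r and H2-Aa. With a filter at a mean of 5 CPM 6 of the list were tested and 2 were higher. Whether a few macrophages in the cultures account for these genes was not tested.

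Of 21 T and NK cell markers only Lck and Cd247 were tested and neither was called (summed CPM 6.20 to 8.12 in Malt1_WT and 6.16 to 6.58 in Malt1_PD). Fibroblast markers summed to 395 to 402 and 445 to 466 CPM, with Pdgfrb and Col3a1 of 7 tested higher, Dcn lower, and Thy1 and Postn at or near 0. The share called was 42.9%, against 23.3% of all genes. Endothelial markers summed to 136 to 148 and 120.1 to 129.9 CPM, with Esam, Eng and Cdh5 of 6 tested lower (50%, against 10.7% of all genes) and Kdr at 0.35 CPM or less. With a filter at a mean of 5 CPM, which tested 3 of them, 1 endothelial marker was lower. The call of Cdh5 was lost without Malt1_WT replicate 2 or any 1 Malt1_PD replicate, and that of Col3a1 without Malt1_WT replicate 1 or Malt1_PD replicate 2 or with only the 6 libraries in the fit.

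Over all 14571 genes tested, 3399 (23.3%) differed at an adjusted p under 0.05, with 1834 (12.6%) higher and 1565 (10.7%) lower in Malt1_PD. In 4906 genes (33.7%) the 3 libraries of one group all lay above the 3 of the other, and 1637 of the higher and 1489 of the lower calls were among them. Most differences were small: 2736 of the 3399 (80.5%) were under 1.5-fold. The larger ones were mostly losses, with 213 genes (1.46%) at least 2-fold lower against 41 (0.281%) at least 2-fold higher, and 42 against 4 past 4-fold. The median log2 fold change over all genes was 0.014, and the median size of called differences was 0.24 for higher and 0.40 for lower genes. With upper-quartile scaling the split turned to 1365 higher and 1766 lower. The count of higher genes also moved with single libraries: it was 1159 and 1207 without Malt1_WT replicates 2 and 3, and 1107 and 1177 without Malt1_PD replicates 1 and 3. Without Malt1_PD replicate 2, 62 genes were at least 2-fold higher.

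**Figure D1:**
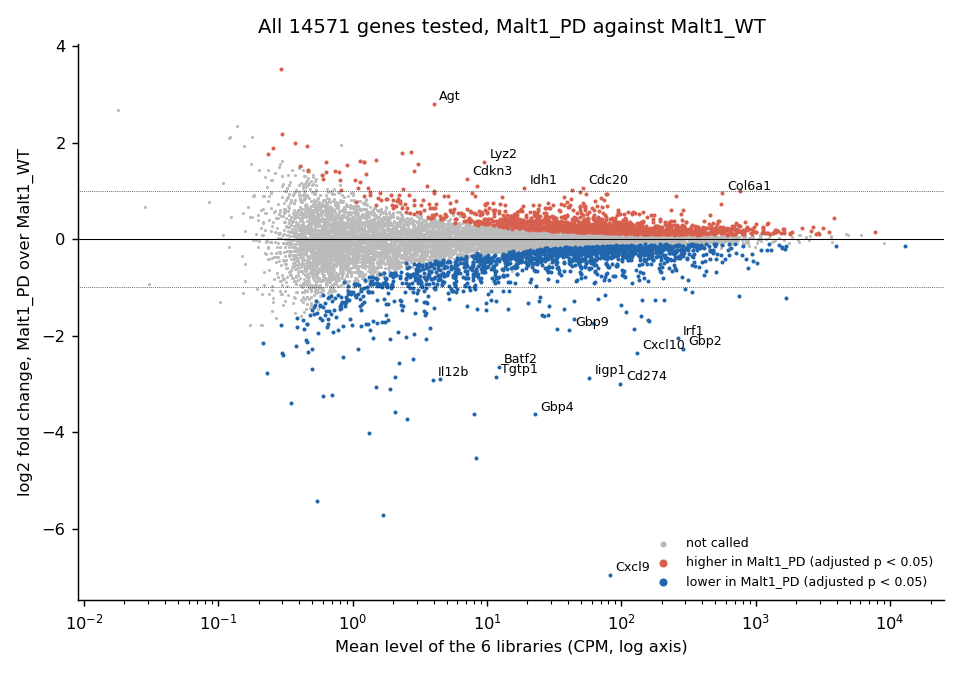
Log2 fold change of Malt1_PD over Malt1_WT (vertical axis) against the mean CPM of the 6 libraries (horizontal, log axis) for all 14571 genes tested, with called genes in red and blue and dotted lines at 2-fold. Of the called genes past 2-fold, 213 lie below and 41 above, and Cxcl9 is the lowest point.

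Among called genes without overlap between the groups and with a mean of 5 CPM or more in 1 group, the 12 largest falls were Cxcl9, Gbp4, Cd274, Il12b, Apol10b, Iigp1, Tgtp1, Batf2, Cxcl10, Gbp2, Irf1 and Gbp9, from -6.96 to -1.88 on the log2 scale. Most of these genes are known to be induced by interferon-gamma. The 12 largest rises were Agt, Lyz2, Cdkn3, Apoe, Idh1, Cdc20, Plk1, mt-Rnr1, Arhgef39, Hmmr, Fam83d and Col6a1, from 2.81 to 0.96. Cdkn3, Cdc20, Plk1, Hmmr and Fam83d act in mitosis or its control.

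Promoters are shown for genes of the 3 groups that the results turn on: interferon-inducible genes, NF-kB targets and mitotic genes. Most runs shown hold a match; Tap1, called lower with a log2 fold change of -1.27, is shown as one that holds none. Each run is the 250 bases before the transcription start in RefSeq (GRCm38.p6), 5′ to 3′ on the strand of the gene, and position -1 is the base before the start. In the first group capitals mark the core of the interferon-stimulated response element (GAAANNGAA), the interferon-gamma-activated site (TTCNNNGAA) or the kappa-B consensus, on either strand. A match describes letters only and is not evidence of binding.

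Cxcl9 (chr5:92328080-92328329, minus strand): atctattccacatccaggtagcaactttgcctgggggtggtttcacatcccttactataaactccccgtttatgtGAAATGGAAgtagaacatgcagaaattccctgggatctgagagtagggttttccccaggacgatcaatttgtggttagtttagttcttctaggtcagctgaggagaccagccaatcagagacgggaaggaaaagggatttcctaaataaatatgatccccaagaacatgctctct
Cxcl10 (chr5:92348890-92349139, minus strand): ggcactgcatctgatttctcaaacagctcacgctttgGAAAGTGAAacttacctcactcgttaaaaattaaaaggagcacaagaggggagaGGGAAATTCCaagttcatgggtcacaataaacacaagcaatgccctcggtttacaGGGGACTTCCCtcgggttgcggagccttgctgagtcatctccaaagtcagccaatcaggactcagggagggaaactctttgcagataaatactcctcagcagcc
Cd274 (chr19:29367188-29367437, plus strand): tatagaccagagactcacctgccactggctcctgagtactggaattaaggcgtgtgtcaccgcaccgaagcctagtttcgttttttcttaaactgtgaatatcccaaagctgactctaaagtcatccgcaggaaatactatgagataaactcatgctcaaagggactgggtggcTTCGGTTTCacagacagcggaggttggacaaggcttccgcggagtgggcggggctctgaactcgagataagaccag
Gbp3 (chr3:142559794-142560043, plus strand): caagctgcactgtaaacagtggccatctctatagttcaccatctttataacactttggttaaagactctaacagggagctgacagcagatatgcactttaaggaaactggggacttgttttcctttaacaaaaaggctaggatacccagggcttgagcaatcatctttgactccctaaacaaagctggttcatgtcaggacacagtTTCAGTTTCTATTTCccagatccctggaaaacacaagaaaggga
Irf1 (chr11:53769764-53770013, plus strand): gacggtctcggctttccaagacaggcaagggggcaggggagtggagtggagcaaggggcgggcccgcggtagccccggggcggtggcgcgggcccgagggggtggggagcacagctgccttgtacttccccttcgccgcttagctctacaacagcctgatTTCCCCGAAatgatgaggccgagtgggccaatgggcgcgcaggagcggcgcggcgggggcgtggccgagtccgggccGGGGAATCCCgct
Tap1 (chr17:34187306-34187555, plus strand): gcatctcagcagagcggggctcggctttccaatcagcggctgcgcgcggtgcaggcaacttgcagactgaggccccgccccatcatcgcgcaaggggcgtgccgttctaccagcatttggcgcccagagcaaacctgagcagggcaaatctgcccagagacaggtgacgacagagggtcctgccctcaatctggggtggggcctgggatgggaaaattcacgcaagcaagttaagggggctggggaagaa
Il6 (chr5:30012864-30013113, plus strand): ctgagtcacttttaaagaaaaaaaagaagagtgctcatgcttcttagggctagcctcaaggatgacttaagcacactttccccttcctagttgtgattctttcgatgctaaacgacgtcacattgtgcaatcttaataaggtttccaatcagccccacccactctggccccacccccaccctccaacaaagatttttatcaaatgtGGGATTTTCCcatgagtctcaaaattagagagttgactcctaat
Nfkbia (chr12:55492648-55492897, minus strand): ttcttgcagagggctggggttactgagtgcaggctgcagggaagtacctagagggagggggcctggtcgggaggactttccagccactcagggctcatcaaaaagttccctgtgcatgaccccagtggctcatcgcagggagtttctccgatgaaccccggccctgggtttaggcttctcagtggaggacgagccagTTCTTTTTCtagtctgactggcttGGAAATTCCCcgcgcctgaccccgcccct

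Cxcl9 held 1 response element core at -175 to -167, Cd274 had 1 at -76 to -68, and Gbp3 had 2 that overlap, between -44 and -30. Cxcl10 held 1 core at -213 to -205 and 3 kappa-B matches, 2 of which overlap. The window of Irf1 had an activated site at -90 to -82 and a kappa-B match at -13 to -4 but no response element core. None of the 3 motifs was in the run of Tap1, in that of its neighbour Psmb9, or before a second RefSeq start of Irf1 and of Gbp3. Il6 had only a kappa-B match, at -44 to -35. Nfkbia had both a core (-53 to -45) and a kappa-B match (-29 to -20), yet its level moved the other way from Irf1 and Il6, as given below.

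Over windows of the 250 bases before and 50 after the start, a response element core was found in 7.35% of all 12874 windows of tested genes and in 18% of the 178 windows of genes at least 2-fold lower in Malt1_PD. Activated sites were in 6.75% of all windows and 16.3% of those of the lower genes. Kappa-B matches were in 10.3% and 11.2%, so their share among the lower genes was close to that of all genes. AP-1 sites (TGANTCA) were in 5.72% of all windows, 17.4% of those of the lower and 26.7% of the 30 windows of the genes at least 2-fold higher. These shares are descriptions with no test. RefSeq windows matched 10076 of the 14571 genes.

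Of 12 tested genes for the MALT1 complex and its adaptors, 3 (25%) were called, close to the 23.3% of all genes. All 3 were lower (median log2 fold change -0.049), or 5 lower without Malt1_PD replicate 2. Bcl10, the partner that recruits MALT1, was at 142, 127 and 144 CPM in Malt1_WT and 121, 121 and 121 CPM in Malt1_PD (-0.18 ± 0.046, adjusted p = 0.0041). Traf6, the ubiquitin ligase downstream of it, was at 122, 135 and 130.3 against 93.2, 103 and 89.5 CPM (-0.44 ± 0.058), with 67.3 CPM in the vector cells. Rbck1, a subunit of the linear ubiquitin ligase, was also called lower, but not without Malt1_WT replicates 1 or 3 or Malt1_PD replicate 2. Of the CARD proteins, Card10 was at 29.0 against 30.6 CPM and Card14 at 2.06 against 1.247 CPM, neither called (Card14 was called lower without Malt1_PD replicate 2), while Card9 was at or under 0.13 CPM in each of the 6 libraries.

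Of 12 tested genes for known protease substrates 4 (33.3%) were called, against 23.3% of all genes. The protease acts on the proteins, which were not measured here. Relb was higher, Tnfaip3, Bcl10 and Rbck1 were lower (5 lower without Malt1_PD replicate 2), and 8 were not called. Tnfaip3, which encodes the deubiquitinase A20, was at 148, 150.4 and 154 against 134, 135 and 128 CPM (-0.18 ± 0.051, adjusted p = 0.0087), with 28.8 CPM in the vector cells; this call was lost without Malt1_PD replicate 3. Zc3h12a, which encodes Regnase-1, was at 171, 171 and 171 against 183, 169 and 178 CPM. The groups overlapped, and the 95% interval of its log2 fold change was -0.039 to 0.13.

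Of 16 tested NF-kB subunit and inhibitor genes 4 were higher in Malt1_PD, 1 was lower and 11 were not called. The share called was 31.25%, against 23.3% of all genes. Without Malt1_WT replicate 2 or Malt1_PD replicate 1 the counts were 3 higher and 2 lower, and 2 were lower also without Malt1_PD replicate 2 or with the replicate number as a block. Nfkb1, which encodes the p105 precursor of p50, was at 180.1, 184 and 194 CPM with the vector, 419, 430.3 and 432 CPM in Malt1_WT and 537, 559.9 and 530.0 CPM in Malt1_PD. Every Malt1_PD library lay above every Malt1_WT library, by 1.27-fold on average (adjusted p = 2.7e-08). Relb, a subunit of the alternative pathway, was at 47.6, 47.1 and 50.8 against 62.9, 59.5 and 61.0 CPM (1.26-fold). Nfkbia, the gene of the inhibitor IkB-alpha that NF-kB itself induces, was at 599.6, 563 and 605 against 711, 653 and 691 CPM (1.16-fold), and Nfkbie, another IkB gene, was higher too, though not without Malt1_WT replicate 2 or Malt1_PD replicate 1. The atypical inhibitor and co-activator gene Nfkbiz was the 1 lower member, at 244, 245 and 253 against 179, 205 and 182 CPM. The main transactivating subunit gene, Rela, was at 206, 203 and 206 against 201, 195 and 199.7 CPM and was not called (interval -0.13 to 0.035).

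NF-kB target genes split. Of 50 tested, 24 were lower and 8 higher in Malt1_PD (median -0.17 against 0.014 over all genes), and 18 were not called. The share called was 64%, against 23.3% of all genes. Il6 was at 17.7, 17.1 and 16.6 CPM with the vector, 293, 297 and 283 CPM in Malt1_WT and 128, 118 and 118 CPM in Malt1_PD. The 3 groups did not overlap, and Malt1_PD was 2.40-fold lower than Malt1_WT (adjusted p = 4.1e-17) while 7.07-fold above the vector (adjusted p = 1.1e-23). Nos2, the inducible nitric oxide synthase, was at 2422, 2269 and 2363 CPM in Malt1_WT and 1006, 981 and 1025 CPM in Malt1_PD (-1.23 ± 0.041), with 322 CPM in the vector cells. In the opposite direction, the monocyte chemokine gene Ccl7 was at 419, 417 and 412 against 739, 664 and 674 CPM (0.74 ± 0.038), and its relative Ccl2 at 1097, 1077 and 1087 against 1468, 1282 and 1361 CPM (0.33 ± 0.042). Other higher members were Csf1, C3, Nfkb1, Nfkbia, Nfkbie and Relb. Kappa-B matches were in 48.8% of 43 windows of this list.

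**Figure D2:**
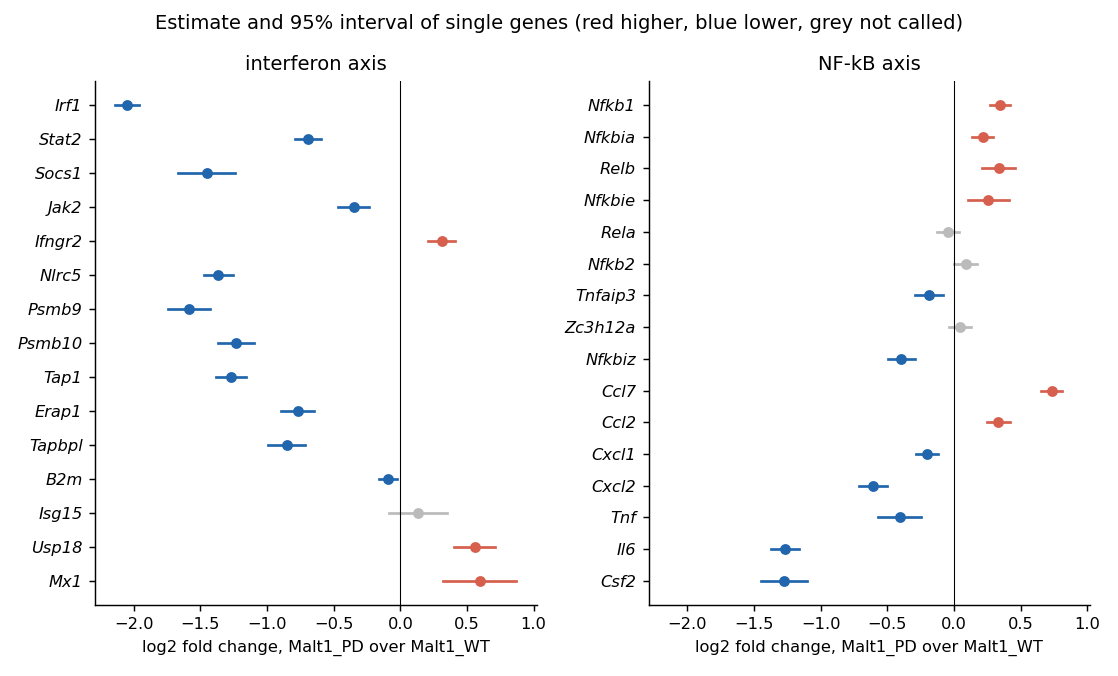
Log2 fold change of Malt1_PD over Malt1_WT with its 95% interval for single genes of the interferon axis (left) and the NF-kB axis (right), red where higher, blue where lower and grey where not called. Irf1 is farthest from 0 at -2.05, whereas Nfkb1, Nfkbia, Relb, Ccl2 and Ccl7 lie to the right of 0 and Il6 and Csf2 to the left; Rela, Nfkb2, Zc3h12a and Isg15 were not called.

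Of 22 interleukins and growth factors of immune cells, 13 were lower, 1, the macrophage growth factor gene Csf1, was higher and 8 were not called (median -0.39). The share called was 63.6%, against 23.3% of all genes. The count of higher members was 3 without Malt1_PD replicate 2, with the replicate block or with no filter on low counts, and 2 without Malt1_WT replicate 1. Il33, an alarmin, was at 50.6, 57.2 and 47.9 CPM in Malt1_WT and 13.8, 13.5 and 15.5 CPM in Malt1_PD (-1.87 ± 0.090), with 5.81, 6.21 and 6.57 CPM in the vector libraries. Csf2, which encodes GM-CSF, was at 66.5, 55.7 and 66.2 against 28.2, 22.7 and 26.5 CPM, and Il1a at 403, 414 and 395 against 228, 229 and 216 CPM. For each of these the Malt1_PD libraries lay between those of the vector and those of Malt1_WT. Il12b, the shared subunit of interleukins IL-12 and IL-23, fell from 6.98 ± 0.654 to 0.910 ± 0.466 CPM (SD, n = 3), whereas Il23a, which encodes the other subunit of IL-23, was at 69.2, 69.8 and 69.5 against 71.6, 65.6 and 66.4 CPM and was not called.

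Among 16 mRNAs known to be destroyed by Regnase-1 or Roquin, 10 (62.5%) were lower, against 10.7% of all genes. None was called higher (median -0.36), or 1 without Malt1_PD replicate 2. Of the 10 lower, all but Tfrc and Il12b were counted among the NF-kB targets as well, so the 2 counts are largely not separate. Csf3, which encodes G-CSF, was at 423, 392 and 379 against 214, 169.8 and 199 CPM (-1.04 ± 0.069, adjusted p = 2.8e-09), and Cxcl2 at 284, 267 and 270.2 against 186, 176 and 178 CPM (-0.60 ± 0.051). Tfrc, the transferrin receptor gene, was at 838, 945 and 870.4 against 656, 769 and 678 CPM (-0.33 ± 0.062). The RNA-binding protein gene Zfp36, which encodes another destroyer of inflammatory mRNAs, was also lower, at 114, 79.9 and 118 against 48.5, 44.3 and 46.3 CPM.

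The CXC chemokine genes held the largest difference of the comparison. Cxcl9, a ligand of the T cell receptor CXCR3, was at 0.651, 0.184 and 0.637 CPM in the vector libraries, 166, 155 and 171 CPM in Malt1_WT and 0.743, 1.66 and 1.55 CPM in Malt1_PD. The Malt1_PD libraries were near the vector and far below every Malt1_WT library (-6.96 ± 0.13, adjusted p = 1.7e-21). Cxcl10, the second CXCR3 ligand, was at 19.8, 18.9 and 18.9 CPM with the vector, 234, 189 and 230.1 CPM in Malt1_WT and 43.4, 38.3 and 45.1 CPM in Malt1_PD (-2.36 ± 0.079), and the Malt1_PD libraries lay above the vector. Cxcl11, the third, is annotated in GENCODE M21 as a polymorphic pseudogene and was at 5.22, 4.09 and 4.82 against 0.531, 0.119 and 0.375 CPM (-3.73 ± 0.35).

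The neutrophil attractants had smaller fold changes. Cxcl1 was at 1811, 1694 and 1762 against 1626, 1465 and 1480.2 CPM (-0.20 ± 0.041), and Cxcl2 is given above. Cxcl3 was not called by edgeR, though it was called lower in 9 of 14 alternatives, among them without Malt1_PD replicate 2. In all, 7 of 9 tested CXC and CX3C genes (77.8%) were lower, against 10.7% of all genes, and 0 higher. Of 10 CC chemokine genes, Ccl5, Ccl12, Ccl8, Ccl3 and Ccl4 were lower and Ccl2 and Ccl7 higher, or 70% called against 23.3% of all genes. The count lower was 3 without Malt1_WT replicate 2, and 2 of the 5 that a filter at a mean of 5 CPM tested. The call of Ccl8 was also lost without Malt1_PD replicate 1 and that of Ccl4 without Malt1_PD replicate 2. The genes Ccl2, Ccl7, Ccl12 and Ccl8 lie in this order on chromosome 11, between 82035571 and 82116799, and differed in direction. Ccl5, another T cell attractant, was at 42.9, 39.9 and 44.2 against 14.1, 11.5 and 17.0 CPM (-1.57 ± 0.091), and Ccl3 at 379, 350.4 and 342 against 229, 188 and 210.0 CPM (-0.77 ± 0.067).

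**Figure D3:**
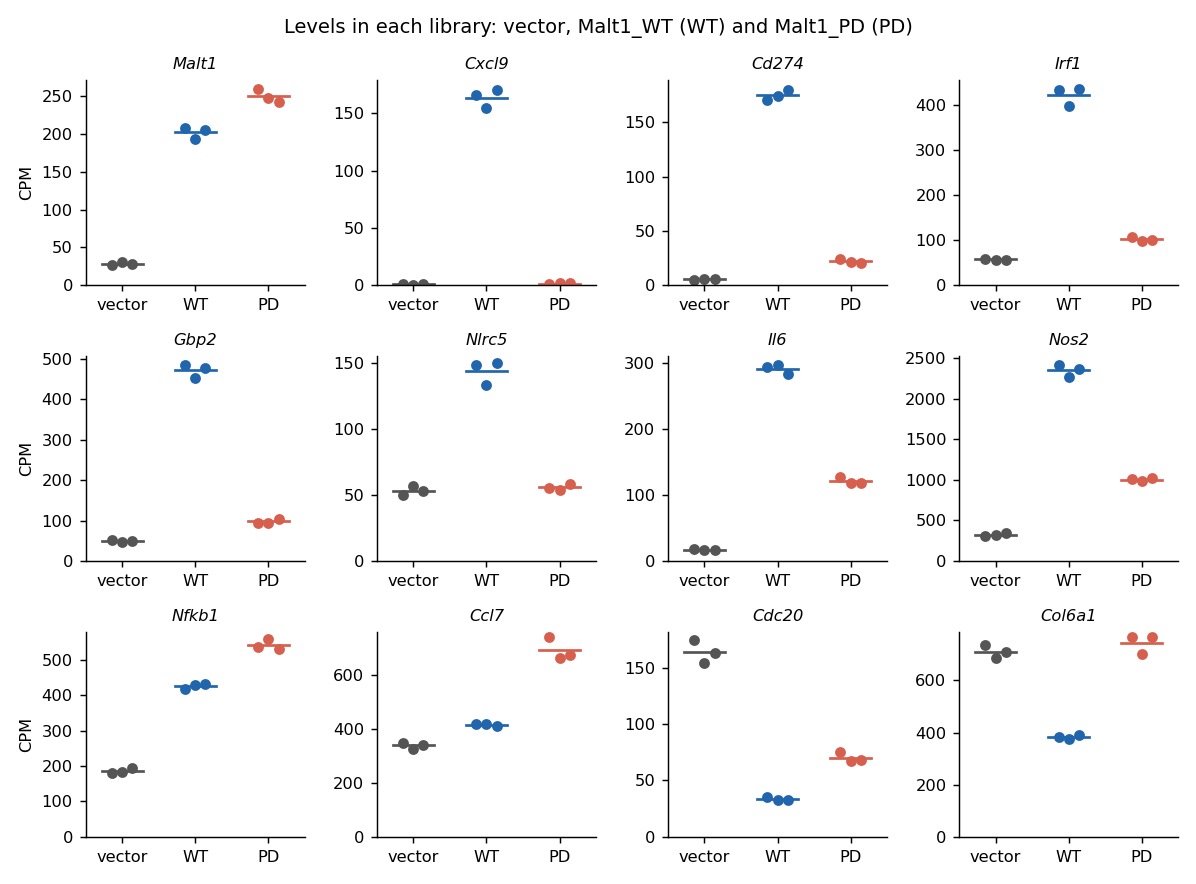
CPM in each library (points) and the mean of 3 (line) for 12 genes in the vector, Malt1_WT and Malt1_PD cells, each panel with its own axis from 0. Cxcl9 and Nlrc5 in Malt1_PD sit near the vector, Cd274, Irf1, Gbp2, Il6 and Nos2 lie between vector and Malt1_WT, and Nfkb1 and Ccl7 are highest in Malt1_PD.

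Interferon-inducible genes differed by class. Irf1, a transcription factor that interferon-gamma and NF-kB both induce, was at 58.7, 56.1 and 55.6 CPM with the vector, 434, 398 and 436 CPM in Malt1_WT and 107, 97.9 and 101 CPM in Malt1_PD. The 3 groups did not overlap, and Malt1_PD was 4.14-fold below Malt1_WT (adjusted p = 5e-24). Of the 6 other interferon regulatory factor genes tested, 0 were called by edgeR, 1 by DESeq2 and 0 by limma-voom. The whole list of 7 thus had 14.3% called by edgeR, against 23.3% of all genes. Counted with Irf1, 3 of the list were lower with RLE scaling, upper-quartile scaling or the replicate block, and 4 with a filter at a mean of 5 CPM. Mean levels were 55.1 against 49.5 CPM for Irf2, 54.1 against 58.1 CPM for Irf7 and 79.5 against 71.5 CPM for Irf9. Irf2 was called lower without Malt1_WT replicates 1 or 2, Irf9 lower without Malt1_PD replicates 1 or 3, and Irf7 higher without Malt1_PD replicate 2. Batf2, a partner of IRF1 induced by interferon-gamma, was at 21.4, 20.4 and 21.5 against 3.98, 3.32 and 2.78 CPM (-2.65 ± 0.13).

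Among interferon receptors and JAK-STAT genes 7 of 16 were lower and 3 higher (median -0.038), or 62.5% called against 23.3% of all genes. Stat2, a transducer of type I interferon signals, was at 189.7, 168 and 181 against 113, 104 and 116 CPM (-0.69 ± 0.048). Socs1, the feedback inhibitor of JAK kinases, had the largest difference of the list, at 59.4, 49.3 and 57.0 against 23.8, 17.6 and 18.8 CPM (-1.45 ± 0.10). Ifngr2, a chain of the interferon-gamma receptor, was higher at 72.4, 76.2 and 73.3 against 95.1, 89.4 and 90.6 CPM (0.31 ± 0.049). The interferon-gamma gene itself, Ifng, had no count in 5 of the 6 libraries and 0.0531, 0 and 0 CPM in Malt1_PD, and Ifnb1 was at 0, 0.288 and 0.193 CPM in Malt1_WT and 0.212, 0.297 and 0.268 CPM in Malt1_PD, at or near 3 counts throughout.

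All 9 tested guanylate-binding protein genes, which encode interferon-gamma-induced GTPases of cell-autonomous defence, were lower in Malt1_PD (median -1.88, from -3.63 to -1.26). Of all genes 10.7% were lower. Gbp2 was at 53.2, 46.9 and 48.4 CPM with the vector, 486, 454 and 477 CPM in Malt1_WT and 95.3, 93.6 and 105 CPM in Malt1_PD (-2.27 ± 0.047, adjusted p = 5e-24). Gbp4 was at 43.7, 39.8 and 42.4 against 3.88, 2.67 and 3.53 CPM (-3.63 ± 0.10), and the smallest difference was in Gbp3, at 202, 197 and 208 against 81.6, 78.9 and 92.9 CPM. In no member did a Malt1_PD library reach a Malt1_WT library, where 33.7% of all genes had no overlap in either direction. Gbp2, Gbp3, Gbp5 and Gbp7 lie together on chromosome 3 (142493978 to 142638008) and the other 5 on chromosome 5 (105014150 to 105293698). They are clusters of similar copies, and reads shared between copies could have been split in the counting.

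The 8 tested immunity-related GTPase genes were lower as well (median -1.68), where 10.7% of all genes were lower. Iigp1 was at 96.9, 99.0 and 109 CPM in Malt1_WT and 11.7, 15.02 and 14.9 CPM in Malt1_PD (-2.88 ± 0.072), and Irgm1 at 152, 166 and 163 against 55.3, 54.5 and 58.8 CPM (-1.51 ± 0.048). Tgtp1 and Tgtp2 are near-identical copies, at 20.5 against 2.81 CPM and at 3.79 against 0.306 CPM, and their separate values are uncertain. Irgq, which is not known as an interferon-induced member, differed least (-0.20 ± 0.054). A response element core was in 5 of the 7 windows of this family and in 4 of 5 of the guanylate-binding family.

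Antiviral genes typical of type I interferon did not follow as one. Of 44 tested, 20 were lower, 6 higher and 18 not called, with a median of -0.10. The share called was 59.1%, against 23.3% of all genes. Parp14 was at 504, 507 and 532 against 287, 311 and 320.0 CPM (-0.75 ± 0.046), its partner genes Dtx3l and Parp9 were also lower, and Trim21 was at 43.1, 47.6 and 45.9 against 29.0, 27.4 and 30.7 CPM. Rsad2, which encodes viperin, was at 404, 374 and 414 against 262, 261 and 302 CPM (-0.53 ± 0.057). In the other direction Mx1 was at 9.53, 10.7 and 8.997 against 14.3, 12.8 and 16.9 CPM (0.59 ± 0.13), Usp18, the protease that removes ISG15 and restrains interferon receptors, at 104, 94.0 and 100.3 against 142, 129 and 167 CPM (0.56 ± 0.072), and Oasl1 (not without Malt1_PD replicate 3), Oas3, Bst2 and Ddx58 were higher too. Isg15 was at 138, 114 and 131 against 143, 117 and 158 CPM and was not called, but was called higher without Malt1_PD replicate 2 (0.24). Response element cores were in 53.7% of the 41 windows of this list, which holds genes of both directions.

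MHC class I genes that were lower act mainly in control of the class and in peptide loading. Of 16 genes 9 were lower and 2 higher (median -0.30), or 68.75% called against 23.3% of all genes. Nlrc5, the transactivator of class I genes, was at 49.96, 57.2 and 53.1 CPM with the vector, 148, 133 and 150.4 CPM in Malt1_WT and 55.2, 53.9 and 58.5 CPM in Malt1_PD. Vector and Malt1_PD libraries overlapped, and all 3 Malt1_WT libraries were above them (-1.37 ± 0.053 for Malt1_PD over Malt1_WT). The peptide transporter genes Tap1 and Tap2 were at 263, 239 and 248 against 104, 93.0 and 113 CPM (-1.27 ± 0.054) and at 113, 105 and 112 against 67.8, 58.3 and 67.5 CPM (-0.77 ± 0.051), and Tapbpl, a peptide editor, at 59.98, 59.4 and 59.8 against 33.2, 33.1 and 32.9 CPM.

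The heavy chain genes H2-K1 and H2-D1 were not called: their mean levels in Malt1_WT and Malt1_PD were 203 against 188 CPM, and 1047 against 988 CPM, with intervals of the log2 fold change of -0.20 to -0.021 and -0.17 to 0.0075, of which the former leaves out 0 before adjustment for the number of genes. B2m, the light chain gene, was called lower (-0.10 ± 0.033), but not without Malt1_WT replicates 2 or 3 or Malt1_PD replicates 2 or 3. H2 genes are similar copies and counts between them are uncertain. The 2 higher genes, Calr and Pdia3, are general chaperones of the endoplasmic reticulum.

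All 5 immunoproteasome genes were lower in Malt1_PD and 0 of the 14 constitutive core subunit genes were, where 10.7% of all genes were lower. Psmb9 was at 43.5, 36.6 and 39.8 CPM in Malt1_WT and 14.3, 11.99 and 13.5 CPM in Malt1_PD (-1.59 ± 0.077), Psmb10 at 105, 88.5 and 90.9 against 40.6, 37.7 and 42.0 CPM (-1.24 ± 0.066) and Psmb8 at 117, 97.9 and 109.8 against 79.4, 67.7 and 74.8 CPM (-0.55 ± 0.059). The subunits that they replace, Psmb6, Psmb7 and Psmb5, were at 132 against 141, 152 against 161, and 81.4 against 91.4 CPM on average, and of these Psmb5 was called higher. Psmb1 and Psmb3 were the other higher core subunits, or 21.4% of the 14 called, close to the 23.3% of all genes. The count higher was 6 without Malt1_PD replicate 2. It was 1 with upper-quartile scaling, a filter at a mean of 5 CPM or only the 6 libraries in the fit. It was also 1 without Malt1_WT replicates 2 or 3 or Malt1_PD replicate 1. Psmb9 and Tap1 start from opposite strands of 1 short stretch of chromosome 17, and their RefSeq windows overlap.

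Cd274, which encodes PD-L1, the ligand of the T cell checkpoint receptor PD-1, was at 4.83, 5.90 and 5.64 CPM with the vector, 171, 174 and 180.3 CPM in Malt1_WT and 23.7, 21.5 and 20.4 CPM in Malt1_PD. The 3 groups did not overlap, and the level in Malt1_PD was 7.99-fold below Malt1_WT (adjusted p = 5.1e-25) and 4.04-fold above the vector (adjusted p = 4.7e-18). Of 13 checkpoint and lymphocyte ligand genes tested 3 were lower and 5 higher, or 61.5% called against 23.3% of all genes. The others lower were Tnfrsf14, at 4.44, 5.13 and 5.53 against 1.38, 2.61 and 2.14 CPM, and Pvr, at 558, 580.2 and 575 against 463, 472 and 453 CPM. Higher were Lgals9 and the NKG2D ligand genes Raet1d and Raet1e, together with Vsir and Cd276, with log2 fold changes from 0.19 to 0.41. Of this list 3 were higher with only the 6 libraries in the fit, without Malt1_WT replicate 2 or without Malt1_PD replicate 3.

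**Figure D4:**
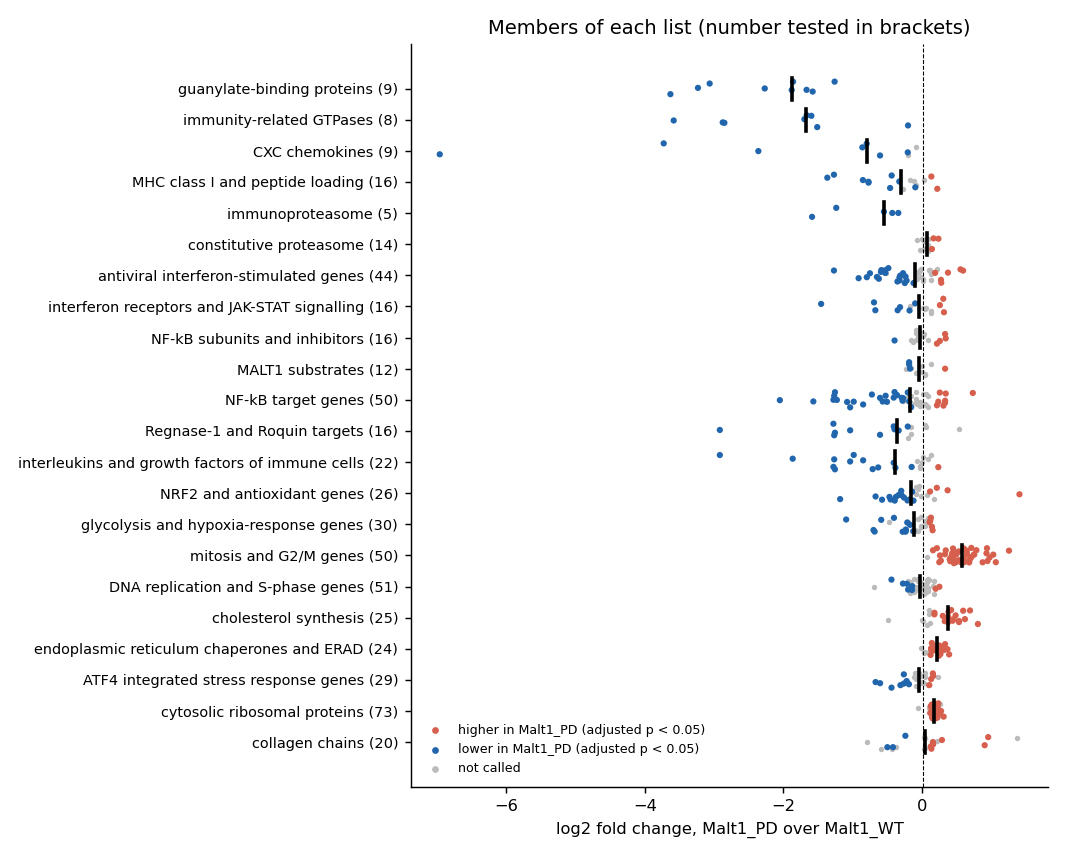
Log2 fold change of Malt1_PD over Malt1_WT for each tested member (points) of 22 gene lists, with the list's median (black bar) and the median of all genes (dashed line); the number tested stands in brackets. Guanylate-binding proteins and immunity-related GTPases lie below 0 as whole lists and mitotic genes above, while NF-kB targets and antiviral genes reach to both sides.

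Enzymes of nitric oxide, arginine and prostaglandin metabolism gave 3 lower and 2 higher of 14, or 35.7% called against 23.3% of all genes. The largest difference was that of Nos2, as above. Only 1 was higher in 11 of the 14 alternatives, among them RLE scaling, DESeq2, limma-voom and each fit without 1 library other than Malt1_PD replicate 3. Arg2 was at 13.95 against 11.6 CPM, not called, while Ptges, a prostaglandin E synthase gene, was at 1431, 1395 and 1380.0 against 1221, 1146 and 1218 CPM (-0.23 ± 0.035). Of 25 genes for TNF receptors, death receptors and survival 9 were lower and 1 higher, or 40% called. Mlkl, the executioner of necroptosis, was at 272, 267 and 265 against 198, 198 and 202 CPM (-0.42 ± 0.035), Casp1 at 49.0, 51.7 and 50.5 against 34.7, 30.6 and 30.1 CPM and Cd40 at 56.7, 47.9 and 56.1 against 37.1, 34.8 and 39.6 CPM. The higher gene was Bbc3, a pro-apoptotic BH3 gene, whose call was lost without Malt1_WT replicates 2 or 3 or Malt1_PD replicate 1, or with only the 6 libraries in the fit; 2 were higher without Malt1_WT replicate 1 or Malt1_PD replicate 2, with the replicate block or with no filter. Toll-like receptor genes and adaptors gave 3 lower (Tlr2, Tlr3, Tlr6) and 1 higher (Irak1) of 14, or 28.6% called, near the 23.3% of all genes. Irak1 was not called without Malt1_WT replicate 2 or Malt1_PD replicate 3 or with only the 6 libraries.

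Complement and acute-phase genes went both ways, with 6 lower and 6 higher of 15, or 80% called against 23.3% of all genes. A filter at a mean of 5 CPM tested 11 of them, of which 3 were higher. The complement protease gene C1s1 was at 157, 153 and 155 CPM in Malt1_WT against 83.7, 82.1 and 83.6 CPM in Malt1_PD (-0.90 ± 0.044), and C4b at 7.54 against 3.60 CPM. The higher genes were C3, at 1095, 1050.3 and 1112 against 1389, 1284 and 1366 CPM (0.31 ± 0.036), the haptoglobin gene Hp, at 187, 194 and 175 against 305, 265 and 279 CPM (0.61 ± 0.051), and Saa2, Cp, Saa1 and Orm1, all known as liver acute-phase products. The calls of Saa1 and Orm1 were lost without Malt1_WT replicates 1 or 3 or Malt1_PD replicate 1, and that of Saa1 also without Malt1_WT replicate 2 or Malt1_PD replicate 3.

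Of 21 ERK feedback and output genes 8 were lower, 2 higher and 11 not called (median -0.054), or 47.6% called against 23.3% of all genes. The count of higher members was 0 without Malt1_WT replicate 2, 1 without Malt1_WT replicate 1 or any 1 Malt1_PD replicate, with upper-quartile scaling, a filter at a mean of 5 CPM or only the 6 libraries, and 4 with no filter. Lower members included the phosphatase genes Dusp4 (289 against 223 CPM, -0.38 ± 0.046) and Dusp5 and the EGF receptor ligand genes Areg, Ereg and Btc. Areg was at 174, 163 and 183 against 133, 121 and 127 CPM. Of 21 AP-1 and immediate-early genes 8 were lower and 5 higher, or 61.9% called against 23.3% of all genes. Jun was at 389, 362 and 382 against 306, 288 and 299 CPM (-0.34 ± 0.045) and Fosl1 at 61.2, 58.3 and 56.7 against 46.1, 39.5 and 44.6 CPM. Myc went in the other direction, at 684, 708 and 674 against 841, 815 and 854 CPM (0.28 ± 0.035). With upper-quartile scaling, or without Malt1_WT replicates 2 or 3, 3 of the AP-1 list were higher; without Malt1_PD replicates 1 or 3 the counts were 5 lower and 3 higher. Among CCN family and YAP/TEAD genes 7 of 21 were lower and 4 higher, or 52.4% called against 23.3% of all genes. The count higher was 2 without Malt1_WT replicate 3 or Malt1_PD replicates 2 or 3, or with only the 6 libraries. Ccn1 was lower at 207, 194 and 211 against 112, 118 and 107 CPM (-0.86 ± 0.070), and F3, the tissue factor gene, at 182, 179.6 and 184 against 124, 133 and 123 CPM. Ccn5 was called higher, at 0.131, 0.115 and 0.0643 against 0.212, 0.534 and 0.482 CPM, where all Malt1_WT libraries are at or under 3 counts; this call was lost without Malt1_WT replicates 2 or 3 or Malt1_PD replicates 2 or 3, or by limma-voom.

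Mitotic genes were higher in Malt1_PD almost without exception. Of 50 mitosis and G2/M genes 49 were higher and 0 lower (median 0.57), where 12.6% of all genes were higher, and Bub1 was not called. Cdc20, which switches on the anaphase-promoting complex, was at 174, 154 and 163 CPM with the vector, 35.6, 32.7 and 32.3 CPM in Malt1_WT and 75.6, 67.4 and 67.8 CPM in Malt1_PD (1.07 ± 0.059, adjusted p = 4.8e-14). Ccnb1, which encodes cyclin B1, was at 210.4, 217 and 203 CPM with the vector, 53.8, 57.5 and 50.5 CPM in Malt1_WT and 109, 108 and 93.7 CPM in Malt1_PD (0.94 ± 0.056). Plk1, the mitotic kinase, was at 140.2, 119 and 140.2 CPM with the vector, 29.7, 26.8 and 28.7 CPM in Malt1_WT and 60.5, 53.8 and 59.4 CPM in Malt1_PD. In each of these the Malt1_PD libraries lay above Malt1_WT and below the vector without overlap. Prc1, a spindle midzone gene, and Hmmr, a spindle gene, were higher by 0.93 and 0.98 on the log2 scale. In bulk RNA a larger share of cells in mitosis and more of these mRNAs per cell cannot be told apart.

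Promoters of 3 of these genes follow. Capitals mark the cell-cycle homology region (TTTGAA or TTTAAA, searched within 50 bases of the start) and the inverted CCAAT box (ATTGG), on either strand; both are known elements of G2/M promoters.

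Cdc20 (chr4:118437344-118437593, minus strand): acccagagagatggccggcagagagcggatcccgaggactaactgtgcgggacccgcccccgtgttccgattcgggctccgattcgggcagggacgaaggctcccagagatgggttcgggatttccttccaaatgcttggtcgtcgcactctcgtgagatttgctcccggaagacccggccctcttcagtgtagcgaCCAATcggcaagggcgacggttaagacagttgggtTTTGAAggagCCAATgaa
Plk1 (chr7:122159185-122159434, plus strand): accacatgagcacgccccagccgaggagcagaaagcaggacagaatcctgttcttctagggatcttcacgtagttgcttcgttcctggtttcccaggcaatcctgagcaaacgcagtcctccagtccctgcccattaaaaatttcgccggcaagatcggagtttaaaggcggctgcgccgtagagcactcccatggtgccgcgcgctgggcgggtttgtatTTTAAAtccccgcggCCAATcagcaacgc
Ccnb1 (chr13:100786487-100786736, minus strand): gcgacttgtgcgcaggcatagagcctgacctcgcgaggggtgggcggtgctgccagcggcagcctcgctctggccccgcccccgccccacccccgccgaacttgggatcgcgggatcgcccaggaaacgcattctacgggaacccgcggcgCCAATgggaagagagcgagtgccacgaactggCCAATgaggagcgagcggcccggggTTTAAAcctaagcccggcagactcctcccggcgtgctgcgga

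The homology region stood at -18 to -13 in Cdc20, -29 to -24 in Plk1 and -42 to -37 in Ccnb1. It was in 68.9% of 45 windows of the mitotic list, 13.3% of 45 of the S-phase list and 5.31% of all windows. CCAAT boxes were in 84.4%, 57.8% and 37.8% of the same windows.

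Of 51 tested DNA replication and S-phase genes 8 (15.7%) were called, against 23.3% of all genes: 2 were higher (Tk1, and Ccne1, which was not called without replicates 2 or 3 of Malt1_WT or 1 or 3 of Malt1_PD), 6 lower and 43 not called (median -0.032), or 13 lower with a filter at a mean of 5 CPM and 4 higher without Malt1_PD replicate 2 or with the replicate block. Ccne2, which encodes cyclin E2, was at 43.7, 51.0 and 52.2 against 37.0, 39.4 and 32.2 CPM (-0.44 ± 0.078) and Pcna, the replication clamp, at 243, 244 and 236 against 221, 214 and 219 CPM (-0.14 ± 0.036). Of 14 replication-dependent histone genes 0 were called by edgeR, and 0 by DESeq2 or limma-voom, with 1 at an unadjusted p under 0.05. These mRNAs lack poly(A) tails, and whether the libraries were made from poly(A) RNA is not given in the sources used here. Among 18 G1 cyclins, kinases and inhibitors 4 were higher and 5 lower, or 50% called against 23.3% of all genes. Cdkn1a, which encodes the inhibitor p21, was at 285, 277 and 288 CPM with the vector, 1078, 998 and 1053 CPM in Malt1_WT and 875, 803 and 853 CPM in Malt1_PD (-0.31 ± 0.041), and Cdkn2c, the p18 inhibitor, was higher at 27.998, 32.6 and 31.4 against 48.6, 47.8 and 50.5 CPM (0.67 ± 0.060). Of 22 p53 target genes 6 were lower and 1 higher, or 31.8% called against 23.3% of all genes. Mdm2, among the lower, was at 344, 352 and 356 against 265, 273 and 261 CPM (-0.40 ± 0.036). The higher count was 0 without Malt1_WT replicates 2 or 3 or Malt1_PD replicate 1 or with only the 6 libraries, 2 without Malt1_WT replicate 1 or Malt1_PD replicate 2 or by limma-voom, 3 with no filter and 4 with the replicate block.

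**Figure D5:**
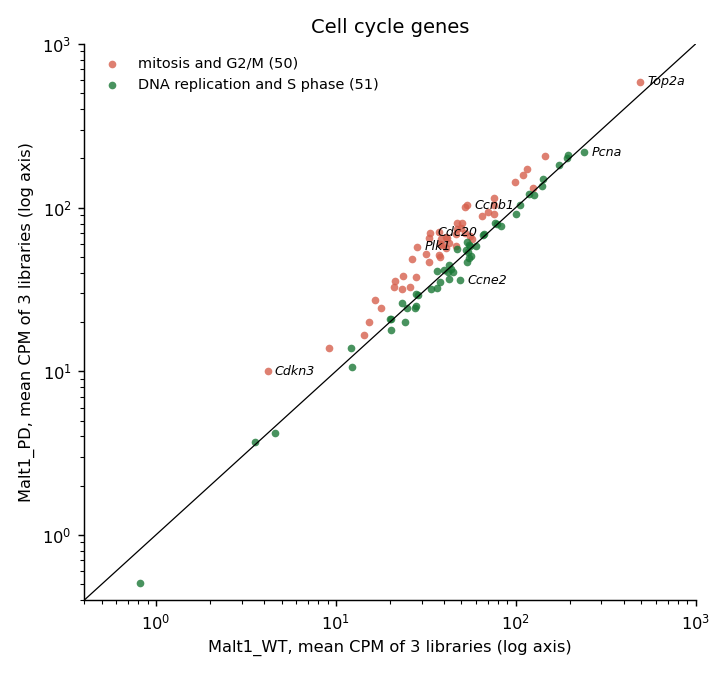
Mean CPM of 3 Malt1_PD libraries (vertical, log axis) against that of 3 Malt1_WT libraries (horizontal, log axis) for 50 mitosis and G2/M genes (red) and 51 replication and S-phase genes (green), with the line of equal levels. The red points lie above the line, by a median of 0.57 on the log2 scale, and the green points along it.

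Sterol genes were higher in Malt1_PD. Of 25 cholesterol synthesis and uptake genes 18 (72%) were higher, against 12.6% of all genes, and 0 lower (median 0.38). Srebf2, the transcription factor of the pathway, was at 173, 168 and 167 against 226, 214 and 223 CPM (0.38 ± 0.038) and Cyp51 at 37.3, 41.5 and 44.3 against 55.2, 62.4 and 60.9 CPM. Fatty acid genes gave 8 higher and 4 lower of 20, or 60% called against 23.3% of all genes. Idh1, a cytosolic source of NADPH, was at 67.8, 70.2 and 69.3 CPM with the vector, 12.6, 12.6 and 11.2 CPM in Malt1_WT and 25.01, 25.5 and 26.2 CPM in Malt1_PD (1.07 ± 0.069), and Acacb was lower at 10.6, 9.50 and 10.4 against 4.30, 5.76 and 4.66 CPM (-1.05 ± 0.14).

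Endoplasmic reticulum chaperones and degradation genes were higher by small amounts, 18 of 24 (75%) with 0 lower (median 0.21), where 12.6% of all genes were higher. Hspa5, which encodes BiP, was at 2871, 2802 and 3088 against 3461, 3390.2 and 3519 CPM (0.24 ± 0.036) and Manf at 216, 209 and 224 against 291, 267 and 281 CPM (0.37 ± 0.045). The ATF4 branch of the stress response differed in direction, with 8 of 29 lower and 4 higher, or 41.4% called against 23.3% of all genes. The count higher was 0 without Malt1_WT replicate 2 or Malt1_PD replicate 1. It was 2 without replicate 3 of either group or with only the 6 libraries. Slc7a11, the cystine transporter gene, was at 159, 178 and 165 against 99.6, 124 and 93.3 CPM (-0.67 ± 0.10) and Aldh1l2 at 226, 227 and 239 against 137, 168 and 151 CPM.

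NRF2 and antioxidant genes were lower in 15 of 26 cases and higher in 4 (median -0.16), or 73.1% called against 23.3% of all genes. The count higher was 2 without Malt1_WT replicate 3 or Malt1_PD replicate 1 or with a filter at a mean of 5 CPM. Hmox1, the heme oxygenase gene, was at 189.7, 194 and 198 CPM with the vector, 1094, 952 and 1067 CPM in Malt1_WT and 462, 464 and 448 CPM in Malt1_PD (-1.18 ± 0.042, adjusted p = 1.7e-18). Txnrd1 was at 659, 626 and 658 against 474, 469 and 461.5 CPM (-0.47 ± 0.036), and Gclm and Srxn1 were lower by similar amounts. Nfe2l2, the gene of NRF2 itself, was higher at 200.2, 209 and 199 against 243, 234 and 229 CPM (0.22 ± 0.039).

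Glycolysis and hypoxia-response genes went both ways, with 12 lower and 5 higher of 30 (median -0.11), or 56.7% called against 23.3% of all genes. Adm, which encodes adrenomedullin, was at 479.6, 434 and 458 CPM in Malt1_WT and 212, 211 and 219 CPM in Malt1_PD (-1.09 ± 0.042), Vegfa at 627, 616 and 643 against 377, 406 and 392 CPM (-0.68 ± 0.048), and Ndrg1 at 1037, 1053 and 1058 against 679.7, 711 and 704 CPM. Pkm, Pfkl, Eno1, Tpi1 and Ldha were higher by 0.11 to 0.15 on the log2 scale, a count that fell to 3 with a filter at a mean of 5 CPM, to 2 with upper-quartile scaling, with only the 6 libraries or without Malt1_WT replicates 2 or 3 or Malt1_PD replicate 3, and to 1 without Malt1_PD replicate 1.

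Small rises were found across housekeeping groups, and their counts depended on single libraries. Of 73 cytosolic ribosomal protein genes 56 (76.7%) were higher, against 12.6% of all genes, and 0 lower (median 0.18). The count higher was 14 without Malt1_PD replicate 1, 22 without Malt1_WT replicate 2, 28 without Malt1_WT replicate 3 and 24 without Malt1_PD replicate 3. Of 40 nuclear-encoded respiratory chain genes 24 (60%) were higher, against 12.6% of all genes, and 0 lower (median 0.17). The count higher was 12 with upper-quartile scaling or only the 6 libraries. It was 14, 7 and 8 without Malt1_WT replicates 1, 2 and 3, and 6 and 9 without Malt1_PD replicates 1 and 3. The largest rise of this list, in Ndufa4, was from 65.9, 57.8 and 60.9 to 88.8, 73.7 and 84.2 CPM (0.42 ± 0.062). Ribosome biogenesis genes gave 11 higher and 1 lower of 27, or 44.4% called against 23.3% of all genes. The count higher was 5 without Malt1_WT replicate 3 or Malt1_PD replicate 1 and 6 without Malt1_PD replicate 3. The count lower was 2 without Malt1_PD replicate 1, with the replicate block or with a filter at a mean of 5 CPM.

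The 13 mitochondrially encoded mRNAs gave 2 higher and 1 lower, or 23.1% called, close to the 23.3% of all genes. The most abundant, mt-Co1, was at 13550.1, 13639 and 13411 against 12161, 12711 and 12132 CPM (-0.13 ± 0.032). The 12S ribosomal RNA gene of the mitochondrion, mt-Rnr1, was at 998, 981 and 969.6 CPM with the vector, 492, 536 and 494 CPM in Malt1_WT and 1042, 964 and 1056 CPM in Malt1_PD (1.01 ± 0.044), with the vector level near that of Malt1_PD. Whether ribosomal RNA was removed before sequencing is not given in the sources used here. Lysosomal genes gave 4 lower and 2 higher of 24, or 25% called, close to the 23.3% of all genes. The lower count was 2 without replicate 3 of either group, with only the 6 libraries or with no filter. The higher count was 4 without Malt1_PD replicate 2 or with the replicate block, 5 with no filter, 0 with a filter at a mean of 5 CPM, and 1 without any 1 of the other 5 libraries, with RLE or upper-quartile scaling or by DESeq2. The largest called difference was a rise of Ctsk, a collagen-degrading cathepsin gene, at 0.848, 0.633 and 0.321 against 1.75, 1.72 and 2.03 CPM (3.03-fold), on few counts.

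Of 20 collagen genes 7 were higher and 3 lower, or 50% called against 23.3% of all genes. With only the 6 libraries in the fit, which tested 17 of them, 3 were higher. The count lower was 1 without Malt1_WT replicate 3 or Malt1_PD replicate 1. Col6a1 was at 735, 687 and 708 CPM with the vector, 385, 377 and 389 CPM in Malt1_WT and 767, 701 and 766 CPM in Malt1_PD (0.96 ± 0.038, adjusted p = 2.5e-17), and Col6a2, another chain of collagen VI, at 359, 348 and 347 CPM with the vector, 183, 169.9 and 182 CPM in Malt1_WT and 354, 313 and 336 CPM in Malt1_PD (0.91 ± 0.044). Vector and Malt1_PD libraries of both genes lay above all Malt1_WT libraries. Col5a3 was lower at 512, 509.8 and 536 against 383, 375 and 408 CPM (-0.42 ± 0.037).

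Of 19 matrix protease and inhibitor genes 9 were lower, including Mmp3 at 119, 129 and 129 against 76.4, 72.1 and 76.9 CPM (-0.74 ± 0.055), Mmp10 at 74.0, 78.7 and 80.2 against 49.0, 53.2 and 44.6 CPM and Mmp13 at 18.4, 17.4 and 18.1 against 8.18, 9.62 and 7.76 CPM. Another 5 were higher, including Timp1, an inhibitor of these proteases, at 74.1, 72.6 and 84.0 against 119.6, 102 and 117 CPM (0.56 ± 0.057). The share called was 73.7%, against 23.3% of all genes. Among 22 matrix and adhesion genes 7 were lower and 5 higher, or 54.5% called. Itgb3 was at 196, 196 and 202 against 141, 148 and 152 CPM (-0.43 ± 0.053) and Sparc at 236, 232 and 229.9 against 287, 269.5 and 299.6 CPM (0.29 ± 0.038). With upper-quartile scaling, with only the 6 libraries, or without Malt1_WT replicates 1 or 3 or Malt1_PD replicate 3, 3 of that list were higher.

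Among 11 tested epithelial genes Dsp, Ovol1, Krt17 and Tjp1 were lower and Krt8 higher, and among 12 mesenchymal genes Vim, Twist1, Tgfbi, Fn1 and S100a4 were higher and 0 lower. The shares called were 45.5% and 41.7%, against 23.3% of all genes. The mesenchymal count lower was 4 with the replicate block, 3 with a filter at a mean of 5 CPM (and 3 higher), 2 with upper-quartile scaling or without Malt1_PD replicate 2, and 1 without Malt1_WT replicates 1 or 2 or by DESeq2 or limma-voom. The call of Fn1 was lost without replicates 1 or 3 of either group. Dsp, the desmoplakin gene, was at 14.3, 13.3 and 14.1 CPM in Malt1_WT and 5.31, 7.42 and 6.21 CPM in Malt1_PD (-1.14 ± 0.13), and Tgfbi, a TGF-beta-induced matrix gene, at 57.3, 53.04 and 56.1 against 90.6, 82.8 and 91.3 CPM (0.67 ± 0.052). Vim, the main intermediate filament of these cells, was at 2493, 2396 and 2457 against 3017, 2811 and 2888 CPM (0.25 ± 0.033).

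Agt, which encodes angiotensinogen, had the largest rise of the 12 named above, at 3.72, 2.89 and 3.77 CPM with the vector, 0.914, 0.979 and 1.09 CPM in Malt1_WT and 7.54, 6.77 and 6.69 CPM in Malt1_PD (2.81 ± 0.20, adjusted p = 8.1e-12). The 3 groups did not overlap, and Malt1_PD exceeded the vector too.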

How the data were processed

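RNA-seq libraries of E0771 cells were compared between 2 construct groups of 3. The deposited file holds raw counts per gene for 15 libraries. Per the submitters' processing notes, the authors used featureCounts 1.6.3, STAR 2.7.3a and Trim Galore 0.6.0 with GRCm38.p6; the sources used here give no settings. Per the labels' protocols, total RNA was made into strand-specific paired-end libraries. Of 55571 rows, 22982 were 0 throughout; names and positions matched GENCODE M21 for 55341.

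All 15 libraries entered 1 edgeR 4.0.16 robust quasi-likelihood fit in R 4.3.3 (filterByExpr, TMM, 14571 genes, Benjamini-Hochberg, threshold 0.05). SEs were taken from the F statistic. Alternatives used other scalings and filters, DESeq2 1.42.0, limma-voom 3.58.1, only the 6 libraries, a replicate block and each library left out. On simulated counts the fit was tested.

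Lists and members were chosen with earlier results of these data known. Named were the 12 largest called rises and falls without overlap between groups at 5 CPM or more, the 4 best calls of each list (all members of lists of up to 14 and of marker lists). The genes Acod1, B2m, Bbc3, Bst2, Bub1, Calr, Ccn5, Ccne1, Ciita, Cp, Csf1, Ddx58, Eno1, Ereg, Grhl3, H2-D1, H2-K1, Hspa5, Ifngr2, Il23a, Isg15, Krt16, Ldha, Mx1, Nfe2l2, Nfkb2, Nfkbie, Nlrp3, Oas3, Oasl1, Orm1, Parp9, Pdia3, Pfkl, Pkm, Rela, Rsad2, Saa1, Saa2, Serpina3f, Tfrc, Tpi1, Usp18 and mt-Rnr2 were named, and Erap1, Jak2 and Tnf plotted, after their values were seen. A few list members are not reported here.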

Additional observations from a re-analysis of the deposited data

How the results depend on the processing

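Of 213 tested genes named here, 193 were called, and 166 of these kept direction and call under each of the 14 alternatives that tested them. Another 27 lost the call under at least 1, and 0 reversed. Where an alternative did not test a gene, that alternative was left out for it. The filter at a mean of 5 CPM tested 9841 genes and the fit of only the 6 libraries 13522, against 14571 in the main fit. Among those not called, Card10 ranged from -0.021, without Malt1_WT replicate 3, to 0.13 with 1 library left out, a reversal of a value near 0; the cause was not tested. The direction and call of Malt1 held under all 14.

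The count of higher genes was 1201 with only the 6 libraries in the fit, a fit with fewer libraries to estimate the spread, and ranged from 1107 to 2085 when 1 library was left out. Genes at least 2-fold higher numbered 8 with the filter at a mean of 5 CPM, which tests fewer genes, and from 29 to 62 with 1 library left out, and those at least 2-fold lower numbered 55 with that filter. The count of all genes called lower in Malt1_PD, with no limit on fold, ranged from 1278 to 1983. It stayed within 1.5 times the reported 1565 under every alternative. Counts lower within some lists moved by more, as given above. Settings that test fewer genes also leave some list members untested, so a smaller count there can be a member not tested. DESeq2 gave 1530 higher and 1481 lower, and limma-voom 1755 and 1598.

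Deviations of same-numbered libraries from their group means correlated at 0.31, 0.35 and -0.0014. Malt1_PD replicates 1 and 2 correlated best with the Malt1_WT library of the same number, and Malt1_PD replicate 3 with Malt1_WT replicate 1 (0.21). The main fit did not pair libraries by number. Whether libraries of the same number shared a batch was not tested. With the replicate block 2057 genes were higher and 1808 lower. Levels under about 0.2 CPM rest on 3 counts or fewer, and with 3 libraries a group small differences may be missed.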

Other observations

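Other gene families, grouped after their values were seen, also differed between Malt1_PD and Malt1_WT. Of 12 detected genes of the Sprr2 family, small proline-rich proteins of the cornified envelope, 8 were tested. All 8 were lower in Malt1_PD, by -2.07 to -1.08 on the log2 scale, where 10.7% of all genes were lower. Members such as Sprr2f (mean 0.998 against 0.306 CPM) passed the filter on low counts only through their Malt1_WT level. The shared direction of such members was thus favoured by the filter. The family consists of near-identical copies, so their separate values are uncertain. Krt16, a keratin gene, was at 9.46, 8.12 and 9.70 CPM in Malt1_WT and 5.10, 3.56 and 5.24 CPM in Malt1_PD (-0.96 ± 0.15, edgeR adjusted p = 2.6e-05), and Grhl3 was at 1.04, 0.806 and 1.16 against 0.266, 0.297 and 0.268 CPM (-1.83 ± 0.44). Of 13 apolipoprotein L genes detected 7 were tested, and of these 6 were lower and 0 higher, where 10.7% of all genes were lower. The size was uneven, from -2.89 in Apol10b to -0.18 in Apol9b, in which the groups overlapped. Apol7e, at 0.354 against 0.0729 CPM on average, rests on few counts. Serpina3f, a serine protease inhibitor gene, was at 2.81, 3.05 and 3.98 CPM in Malt1_WT and 0.0531, 0.119 and 0 CPM in Malt1_PD, where the latter are at or under 3 counts.

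Single genes of immune metabolism and sensing were lower as well. Acod1, whose product makes itaconate, was at 4.74, 4.92 and 6.57 CPM with the vector, 98.3, 91.8 and 92.0 CPM in Malt1_WT and 27.3, 25.2 and 31.4 CPM in Malt1_PD (-1.74 ± 0.071, edgeR adjusted p = 3.3e-17). Ciita, the transactivator of MHC class II genes, was at 3.33, 2.36 and 4.56 against 0.266, 0.178 and 0.696 CPM (-3.11 ± 0.34), and the class II genes Cd74 and H2-Aa were at 12.5, 9.50 and 10.2 against 7.54, 5.10 and 6.64 CPM and at 0.653, 0.288 and 0.578 against 0.0531, 0.119 and 0.107 CPM. Nlrp3, the inflammasome sensor gene, was at 67.7, 64.4 and 71.9 against 38.0, 42.7 and 37.8 CPM (-0.78 ± 0.063). In each of these genes every Malt1_PD library lay below every Malt1_WT library, where 33.7% of all genes had no overlap in either direction. H2-Aa in all Malt1_PD libraries and Ciita in Malt1_PD replicate 2 were at or under 3 counts. The call of H2-Aa also depended on single libraries, as given above.

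In the other direction both mitochondrial ribosomal RNA genes were higher. mt-Rnr2 was at 213, 248 and 222 CPM in Malt1_WT and 345, 355 and 346 CPM in Malt1_PD (0.61 ± 0.052). Whether the libraries were made from poly(A) RNA or depleted of ribosomal RNA is not given in the sources used here. Of 8 tested mitochondrial transfer RNA genes 2 were higher and 0 lower, where 12.6% of all genes were higher. The 13 mitochondrial mRNAs gave 2 higher and 1 lower, a share called (23.1%) close to that of all genes (23.3%).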
